A study of Drosophila melanogaster with 2 samples.

Results

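The regions described here were the weaker regions of a pooled chromatin immunoprecipitation sequencing (ChIP-seq) list that lay in introns or between genes. The list came from whole Drosophila melanogaster pupae of 48 h, with both sexes pooled, of a transgenic line that stably carries CG8301 with GFP fused to its C terminus. There was 1 group with 2 biological replicates, so no condition was compared. The labels contradict each other: the assay is transcription factor ChIP-seq and the antibody field names CG8301, while the description text presents either library as input control, so a region here may or may not be bound by the fusion. A whole animal mixes all tissues and is not resolved by cell type, and the promoter of the transgene is not given in the sources used here.

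Members were the regions of the authors' pooled list of 30000 that overlapped no region of the list passing the authors' irreproducible discovery rate (IDR) threshold, and whose summit lay in no exon and more than 500 bp from every annotated transcript start. The IDR regions were exactly the strongest of the pooled list and 21995 pooled regions lay outside them, so the members were chosen by the authors' pooled signal, which was lower in all of them than in every IDR peak, and by position. Of 20607 weaker regions that overlapped no IDR region, 4108 had a summit within 500 bp of a start and 1056 in an exon. The other 15443 were the members, 51.5% of the pooled list, of which 10726 were intronic and 4717 intergenic. IDR peaks under the same position rule numbered 3947 in introns and 1492 between genes and served as the nearest comparison.

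In flies, DNA inside introns and between genes carries many of the enhancers that direct genes in space and time, and large developmental genes often keep them in a long first intron. A ranked list made as input to an IDR procedure is deliberately deep: it holds strong sites, weak sites and background in a single order, and the procedure then asks how far down the order the replicates rank regions alike. In the pupa most larval tissue is being replaced under the steroid hormone ecdysone, while adult muscle, epidermis and neural circuits are built.

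For each class 3 of the strongest members that were found in both replicate lists are shown first, because they sit at the upper edge of the class. Each line gives the summit base and 50 bp to either side, from the plus strand of the NCBI reference assembly for dm6. Capitals mark TAATTA (the core word of homeodomain factors) and runs of 8 or more A on either strand (A tracts), 2 of the words that later comparisons turn on.

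smog intron, chr2L:4864489-4864589: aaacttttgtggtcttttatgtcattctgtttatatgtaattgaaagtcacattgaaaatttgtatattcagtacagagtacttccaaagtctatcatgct
pyd intron, chr3R:8920250-8920350: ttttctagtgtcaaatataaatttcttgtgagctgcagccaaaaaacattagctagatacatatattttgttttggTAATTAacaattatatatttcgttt
CG6847 intron, chrX:17913228-17913328: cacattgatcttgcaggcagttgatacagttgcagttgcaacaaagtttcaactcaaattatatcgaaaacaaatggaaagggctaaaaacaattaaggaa
Intergenic, nearest start CG15322, chrX:20129682-20129782: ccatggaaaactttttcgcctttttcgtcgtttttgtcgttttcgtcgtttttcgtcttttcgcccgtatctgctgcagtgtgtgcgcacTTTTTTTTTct
Intergenic, nearest start CG18404, chr3R:30256457-30256557: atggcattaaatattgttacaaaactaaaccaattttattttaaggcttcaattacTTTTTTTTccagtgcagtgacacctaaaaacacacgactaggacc
Intergenic, nearest start ich, chr3R:8964093-8964193: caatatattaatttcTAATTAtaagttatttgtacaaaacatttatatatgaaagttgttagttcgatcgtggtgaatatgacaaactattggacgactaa

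The member in smog, which encodes a G-protein-coupled receptor for the morphogenetic ligand Fog, had pooled rank 8006 and signal 143.148, just inside the limit. It ranked 10978 in the list of replicate 1 and 7341 in that of replicate 2. The member in pyd, which encodes a ZO-1 type scaffold of cell junctions, ranked 11283 in replicate 1 and 7195 in replicate 2, and the one in CG6847 ranked 7749 and 8739. The member near CG15322 ranked 6824 in replicate 1 and 10379 in replicate 2, the one near CG18404 ranked 6958 and 9952, and the one near ich ranked 20427 and 6615. Taking from each replicate list as many of its strongest regions as the IDR list holds, its top regions, each of these 6 was a top region in 1 replicate and not in the other, 3 in replicate 1 and 3 in replicate 2.

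At the limit of the IDR list, the last 3 IDR regions by pooled rank had signals of 143.241, 143.236 and 143.213. The first 3 weaker ones, at ranks 8006, 8007 and 8008, had 143.148, 143.097 and 143.085, so the limit cuts a continuous order. At the limit from a start, regions of ranks 17738 and 22892 lay at 500 bp and were left out, and those of ranks 12855 and 15981 lay at 501 bp and were kept. The signal is the authors' value per region, of unstated scale, and serves here to rank regions within a list.

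Signals of intronic members ran from 20.4 to 143 with a median of 42.1, and those of intergenic members from 20.4 to 143 with a median of 41.6. The IDR peaks of the same classes began at 143 and had medians of 289 in introns and 280 between genes. In the replicate lists, weaker intronic regions had a median signal of 23.3 in replicate 1 and 27.1 in replicate 2, and weaker intergenic ones 22.9 and 26.7. The deposited −log10 q-value was under 1 for 6516 members (42.2%), while 2283 (14.8%) carried the top value of 4.37 that all IDR peaks share.

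Members were uniform in shape. A width of exactly 410 bp was recorded for 97.6% of them, against 15.7% of the whole IDR list, promoters and exons included. The most common width of weaker regions was 440 bp in the list of replicate 1 and 364 bp in that of replicate 2, so it is a property of each list and the width of a member carries little information. In all, 4205 members (27.2%) overlapped another member, and merging overlaps left 13257 separate places. Neighbouring members therefore share sequence and reads and are not independent.

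Members found in both replicate lists made up 60.0% of the class (9270 of 15443), where found means an overlap of 1 bp or more with a region of that list. Of the rest, 1779 overlapped only the list of replicate 1, 3710 only that of replicate 2 and 684 neither. Over all 20607 weaker regions the share in both lists was 61.3%, so members stood near the background of their kind. Because the pooled list was made from the same reads, this share describes the lists and is not an independent repeat.

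Intronic members were found in both lists more often than intergenic ones. The share was 61.2% of intronic members (95% interval 60.2 to 62.1) and 57.4% of intergenic members (56.0 to 58.8), an odds ratio of 1.17 (2-sided Fisher's exact test, p = 1.35e-05). The gap lay in replicate 1, whose list held 73.5% of intronic and 67.1% of intergenic members. In replicate 2 the order was the other way, with 83.4% of intronic and 85.6% of intergenic members. When at least 50% of a member had to be covered, the shares were 49.9% and 48.4% and the difference no longer passed (exact p = 0.0806). Regions share libraries and are not independent, so the p covers counting error of regions only.

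Support dropped steadily with pooled rank. Between ranks 8006 and 12000, 92.9% of intronic and 89.5% of intergenic members were in both lists, beside 96.1% and 93.5% of the IDR peaks from rank 4001 down. The shares were 86.1% and 82.9% at ranks 12001 to 16000, 73.2% and 69.1% at 16001 to 20000, and 50.3% and 49.5% at 20001 to 24000. In the last band, ranks 24001 to 30000, 28.9% of intronic and 24.2% of intergenic members were in both. The intronic share was the higher one in each of these 5 bands. Since rank follows signal, which chose the members, this trend is a description.

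**Figure D1:**
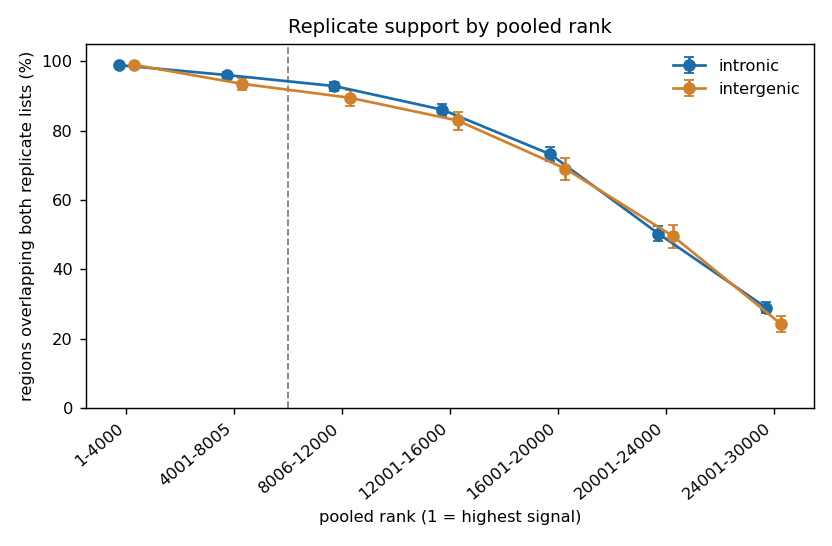
Share of pooled regions (%) that overlap both replicate lists, by band of pooled rank, for intronic and intergenic summits; bars are exact 95% binomial intervals and the dashed line is the limit of the IDR list. Right of the line the shares decline to 28.9% of intronic and 24.2% of intergenic members in the last band.

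Among intronic members found in both lists, the ranks given by the 2 replicates had a Spearman rank correlation of 0.36, and those of intergenic ones 0.41. IDR peaks of both classes had 0.75 over all their ranks, but 0.105 in introns and 0.173 between genes from rank 4001 down. Members had -0.33 and -0.358 at ranks 8006 to 12000, -0.497 and -0.441 at 12001 to 16000, and -0.293 and -0.315 at 16001 to 20000. Members at 20001 to 24000 had 0.0512 and 0.0979, and those in the last band 0.257 and 0.315. The value changed with the range of ranks, so 0.36 and 0.41 beside 0.75 do not compare replicate agreement. These values span regions of the same 2 libraries, in a range of ranks that the rule cut, and are a description.

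A small number of members were strong in a replicate on its own. Among the top regions of replicate 1 were 301 members, and among those of replicate 2 were 437. Of the 15443 members 11 were in both, 10 intronic and 1 intergenic. For 4 of these 11 a replicate region also overlapped an IDR peak, so its rank is shared with that peak. Of all 20607 weaker regions, 584 were top regions of replicate 1, 641 of replicate 2 and 23 of both. The rule leaves out the strongest pooled regions, so a low count in both is set largely by the rule. A member in the first intron of aPKC, the gene of the atypical protein kinase C of apical-basal polarity, ranked 5497 in replicate 1 and 4363 in replicate 2 but 13217 in the pooled list; its summit lay 9256 bp from the nearest IDR summit. Another, in an intron of Samuel, ranked 5293 and 7416 in the replicates and 8105 in the pool. The intergenic one, 1230 bp from the start of lectin-21Cb, ranked 7577 and 7713 in the replicates and 8413 in the pool. These members were picked out for their ranks.

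Introns held more members per length than the DNA between genes. Eligible sequence, meaning no exon and more than 500 bp from every start, came to 52.8 Mb in introns and 36.3 Mb between genes. Intronic members stood at 203 per Mb and intergenic ones at 130 per Mb, and introns held 69.5% of members (95% interval 68.7 to 70.2) in 59.3% of the eligible sequence. IDR peaks under the same rule had 74.8 per Mb in introns and 41.1 per Mb between genes, and 72.6% of them were intronic. With the list of replicate 1 alone 71.5% of weaker regions were intronic and with that of replicate 2 alone 67.0%.

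First introns were the denser ones. Intron sequence belonging to a first intron of a transcript of a protein-coding gene held 283 members per Mb. Other intron sequence, which includes first introns found only in noncoding genes, held 146 per Mb. The first introns so defined held 58.2% of intronic members in 41.8% of the sequence. The same share was 57.8% in the list of replicate 1 and 56.9% in that of replicate 2. The gap was present at every distance from a start. At 500 to 1000 bp first introns held 310 members per Mb and other introns 165, at 2000 to 5000 bp 297 and 178, at 10000 to 20000 bp 286 and 168, and beyond 20000 bp 188 and 57.1. IDR peaks showed the same order, with 113 per Mb in first introns and 47.7 in others.

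Distance from a start had a modest association with density up to 20000 bp and a large drop after that. Intronic members stood at 262 per Mb at 500 to 1000 bp from a start, 238 at 1000 to 2000 bp, 237 at 2000 to 5000 bp, 216 at 5000 to 10000 bp, 205 at 10000 to 20000 bp and 75.3 farther away. Intergenic members stood at 174, 181, 170, 158, 116 and 21.3 per Mb over the same bins. IDR peaks in introns thinned out more over the same distances, with 134 per Mb in the nearest bin, 61.9 at 10000 to 20000 bp and 21.7 beyond.

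Members gathered around IDR peaks. At 500 to 1000 bp from an IDR summit there were 581 intronic and 587 intergenic members per Mb, and at 1000 to 2000 bp 566 and 542. Density was 413 and 396 at 2000 to 5000 bp, 240 and 216 at 5000 to 10000 bp, 112 and 103 at 10000 to 20000 bp, and 38.2 and 25.4 farther away. Within 500 bp it was 12.7 and 9.65, where the rule removes regions that overlap an IDR peak. From 500 to 20000 bp the classes were closer to each other at matched distance than over all sequence, where they stood at 203 and 130. Beyond 20000 bp, at 38.2 and 25.4, the gap was much like that over all sequence. The cause of the difference between the classes was not tested. Of intergenic sequence 56.5% lay more than 20000 bp from an IDR summit, against 37.9% of intronic sequence. The median distance of a member to the nearest IDR summit was 2664.5 bp in introns and 3249 bp between genes. Within a replicate list, from weaker to top regions, it was 2866.5 and 3256.5 bp in replicate 1 and 2801.5 and 4114.5 bp in replicate 2.

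**Figure D2:**
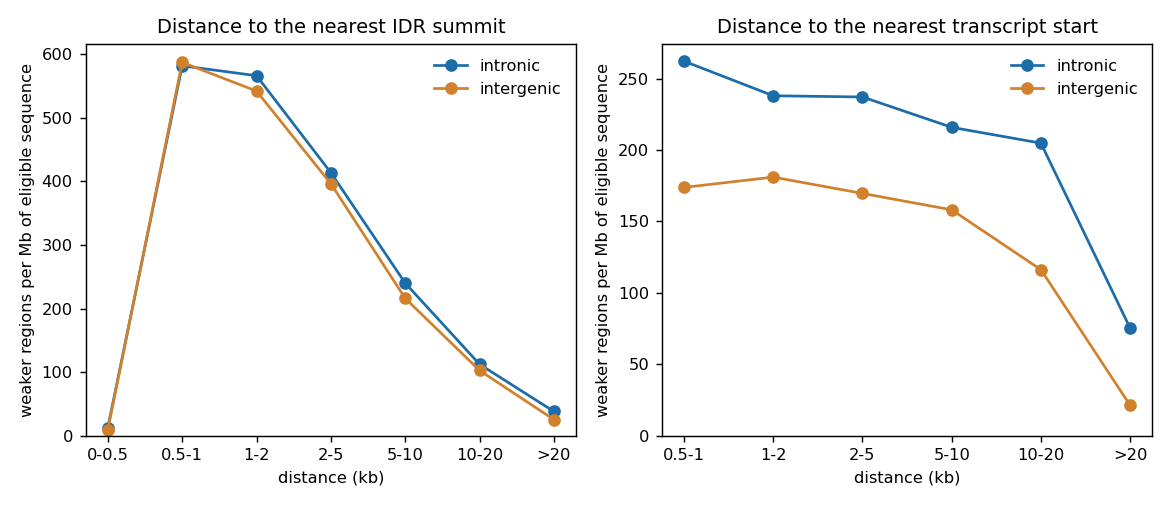
Weaker regions per Mb of eligible sequence by distance in kb to the nearest IDR summit (left) and to the nearest transcript start (right), for intronic and intergenic members. Density peaks at 0.5 to 2 kb from an IDR summit, at 542 to 587 per Mb, and the low point nearest to the summit is set by the rule.

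The chromosomes differed. On the small, largely heterochromatic chromosome 4 members stood at 43.0 per Mb in introns (24 members) and 28.5 per Mb between genes (7 members). Intronic members had their highest density on X, at 229 per Mb, and their lowest among the large arms on 3R, at 181. Intergenic members had their highest density on 3L, at 155 per Mb, and their lowest among the large arms on 2R, at 98.9. Soft-masked sequence, which the reference marks as repeated or of low complexity, held 22.1% of intronic members in 23.1% of intronic sequence, and 21.7% of intergenic members in 26.7% of intergenic sequence.

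The base composition of summits changed along the ranking. Over the summit and 50 bp to either side, median GC content was 38.6% in intronic and 37.6% in intergenic members, and 30.7% and 28.7% in IDR peaks of the same classes. It was 32.7% and 30.7% at ranks 8006 to 12000, 35.6% and 32.7% at 12001 to 16000, 38.6% and 36.6% at 16001 to 20000, and 40.6% and 41.6% at 20001 to 24000 and again in the last band. All eligible intronic windows had a median of 40.6% and all intergenic ones 41.6%, the same values as the members below rank 20000. Members whose windows and flanks both met the position rule had 38.6% at the summit and 41.6% in a flank 500 bp away in introns, and 36.6% and 43.6% between genes. Each replicate list showed the same order: weaker against top regions had 39.6% and 31.7% in introns and 38.6% and 29.7% between genes in replicate 1, and 36.6% and 29.7%, and 35.6% and 28.7%, in replicate 2.

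**Figure D3:**
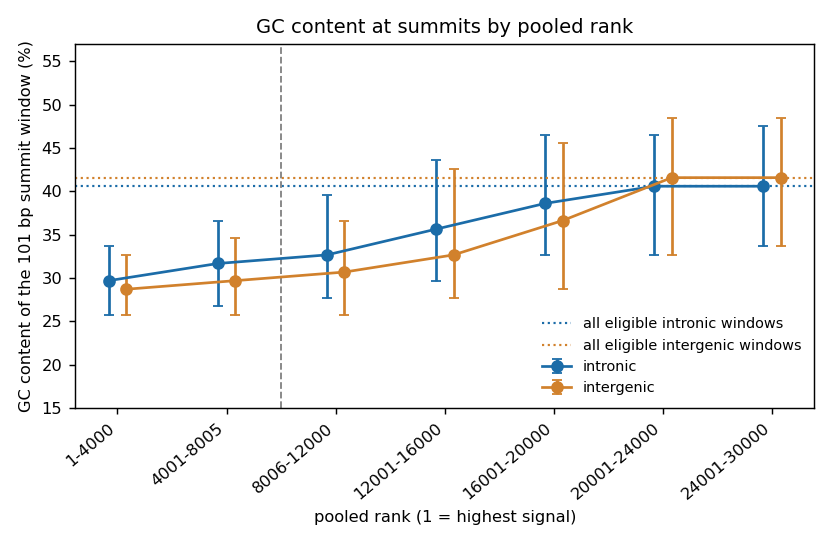
Median GC content (%) of summits with 50 bp to either side by band of pooled rank, with bars from the first to the third quartile; dotted lines are the medians over all eligible intronic and intergenic windows and the dashed line is the limit of the IDR list. The median climbs to 40.6% in intronic and 41.6% in intergenic members, where it meets the dotted lines.

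Next, 32 short words known from fly transcription factors or simple repeats were searched on both strands within 50 bp of each summit and in 1 flank of the same length centred 500 bp away, on a side set by whether the region's start is an even number. Only members whose summit and flank windows all met the position rule were used, 8523 intronic and 3964 intergenic. A word found is a description of the letters and not a bound site. In intronic members 1 of 32 words (3.12%) was found more often at the summit and 1 of 32 (3.12%) more often in the flank, by exact binomial tests with Benjamini-Hochberg adjustment over both classes. In intergenic members no word passed in either direction (0 of 32, 0%), and 3 of 32 had an unadjusted p under 0.05.

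The word higher at intronic summits was the A tract, AAAAAAAA, in 11.2% of summit windows and 8.14% of flank windows (852 members with it only at the summit, 594 only in the flank, exact binomial test, adjusted p = 7.9e-10), against 6.93% of all eligible intronic windows. That call ended when members with a soft-masked summit base were left out. The summit to flank ratio was then 0.948 in place of 1.37 (exact binomial test, adjusted p = 0.754). Flank windows were not filtered in this way. The filter treats summit and flank unlike, so the fall cannot show whether the call depends on masked sequence. In intergenic members the A tract stood at 7.62% at the summit and 6.58% in the flank (exact binomial test, adjusted p = 0.46). Median GC content of the windows compared was 38.6% at intronic summits and 41.6% in their flanks, and 36.6% and 43.6% between genes. The part of this GC difference in the word comparisons with the flank was not tested. A strong intronic member with the word, in CG4502 at pooled rank 8041, is shown with the tract in capitals, read here as T on the plus strand.

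CG4502 intron, chr2L:7202505-7202605: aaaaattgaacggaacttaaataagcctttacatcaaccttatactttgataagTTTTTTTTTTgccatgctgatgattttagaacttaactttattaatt

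The word lower at intronic summits was CAGGTAG, bound by the early embryonic activator Zelda, in 0.211% of summit windows and 0.575% of flank windows (17 members against 48, exact binomial test, adjusted p = 0.00487), with 0.455% in all eligible intronic windows. With the list of replicate 1 alone the ratio was 1.04 and with that of replicate 2 alone 0.609 (exact binomial test, adjusted p = 0.169), so the call did not hold in either list. One strong intronic member carries the word, in kibra, whose product acts upstream of the Hippo pathway, at pooled rank 8028; capitals mark it on the opposite strand.

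kibra intron, chr3R:14707068-14707168: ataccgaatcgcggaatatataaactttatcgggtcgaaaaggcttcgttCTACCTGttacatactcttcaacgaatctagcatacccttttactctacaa

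The next words in order of p did not pass in introns. CACGTG, the E-box read by Myc and the clock factors, was in 0.774% of summit and 1.15% of flank windows (exact binomial test, adjusted p = 0.267), and ACATTCC, the word of Scalloped, in 1.29% and 0.974% (adjusted p = 0.46). Between genes, TGCATAC, part of the Su(Hw) insulator word, was in 1.99% of summit and 1.29% of flank windows (exact adjusted p = 0.267), CACGTG in 0.782% and 1.31% (adjusted p = 0.352) and CCCGCCC, read by KLF and Sp factors, in 0.757% and 1.24% (adjusted p = 0.422). In the list of replicate 2 alone 6 words passed between genes, among them TGCATAC at the summit (ratio 1.93, exact adjusted p = 0.00106), and in that of replicate 1 alone 1 passed, the A tract.

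Set against IDR peaks of the same class, members carried several words more often, among them CACACACA, GCTGCTGC and E-boxes, and TAATTA less often in both classes. In introns 10 of 32 words (31.2%) were in a higher and 2 of 32 (6.25%) in a lower share of members than of IDR peaks, and between genes 7 of 32 (21.9%) were higher and 1 of 32 (3.12%) lower (Fisher's exact test, Benjamini-Hochberg adjustment over both classes). The CA repeat CACACACA was in 2.92% of intronic members and 1.17% of intronic IDR peaks (exact adjusted p = 4.79e-09), with 2.59% in all eligible intronic windows. GCTGCTGC was in 1.47% of intronic members and 0.405% of IDR peaks (exact adjusted p = 2.43e-07), and in 1.76% of intergenic members and 0.201% of IDR peaks (3 of 1492, exact adjusted p = 5.14e-06). TAATTA was in 7.78% of intronic members and 10.5% of IDR peaks (exact adjusted p = 5.14e-06), and in 7.93% and 11.5% between genes (exact adjusted p = 0.000298). The other word called lower in introns was TTCNNNGAA, the word of Stat92E, in 2.83% of intronic members and 3.62% of IDR peaks (exact adjusted p = 0.0473); between genes it was in 2.99% and 3.15% (exact adjusted p = 0.863).

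The same words were counted in all eligible sequence. TAATTA was in 7.61% of all eligible intronic and 7.45% of intergenic windows, and GCTGCTGC in 1.24% and 1.23%. CAGGTG, the E-box of the Snail family, was in 2.51% of intronic members and 1.34% of IDR peaks (exact adjusted p = 0.000133), below the 3.22% of all eligible intronic windows. Over the 5 bands of rank used above, from strong to weak, GCTGCTGC was in 0.736%, 1.37%, 1.41%, 2.16% and 1.54% of intronic members and in 0.409%, 1.11%, 1.76%, 2.51% and 2.35% of intergenic members. TAATTA was in 8.49%, 8.32%, 6.64%, 8.28% and 7.46% of intronic members and in 10.4%, 9.52%, 7.06%, 5.89% and 7.60% of intergenic members. In both classes GCTGCTGC was rarest and TAATTA most frequent in the strongest band of members. The GC difference given above, of 38.6% against 30.7% in introns and 37.6% against 28.7% between genes, moves with these words, and its part in the differences was not tested. Among the stronger of 2 equal parts of the members, 7 words passed in introns and 1 between genes, where 12 and 8 passed among all members. In the list of replicate 1 alone, its weaker regions against its own top regions, not IDR peaks, gave 7 and 5.

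Members were spread over 1821 of the 9101 protein-coding genes with eligible intron sequence, a background of 20.0%. These genes had a median of 3 members. In 747 of the 1821 (41.0%) the eligible introns held no IDR peak. The same share was not counted over all 9101 genes, so the 41.0% has no background and sets these genes apart in no way. Intron length went with the count: genes with a member had a median of 9.70 kb of eligible intron, against 0.285 kb in genes with none. The share with a member was 1.65% of genes with up to 1 kb, 29.5% at 1 to 5 kb, 62.0% at 5 to 20 kb and 77.6% above 20 kb. A member in overlapping genes is counted in each of them. IDR peaks of a gene are counted only where their summit lies in its eligible intron.

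Among the 329 genes with 10 or more members, kirre led. This gene (FBgn0028369, chromosome X, 2740384 to 3134532), which encodes an immunoglobulin-family adhesion protein of muscle founder cells and neurons, held 115 members and 33 IDR peaks in 333 kb of eligible intron. The list of replicate 1 alone gave 93 weaker regions in kirre and that of replicate 2 gave 125, and 72 of the 115 members were in both lists.

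Eip75B (FBgn0000568, 3L, 17950953 to 18064696), which encodes the ecdysone-induced nuclear receptor E75, held 67 members and 15 IDR peaks, with 51 weaker regions in replicate 1 and 57 in replicate 2. The translational repressor gene pum held 65 members, with 70 in replicate 1 and 54 in replicate 2. The gene of the homeodomain cofactor Homothorax, hth, held 60, with 51 and 50 in the replicates. All these genes were high in both lists, in an order that changed between them.

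Next came CG46467 and Glut4EF, which overlap and count the same 58 members, then the teneurin gene Ten-a with 57, CG43658 with 55 and Rbp6, the gene of a Musashi-family RNA-binding protein, with 52. Rbp6 was the one of the 15 genes whose count moved by over 1.5 times with 1 list alone, with 31 weaker regions in the list of replicate 1 and 49 in that of replicate 2. The Krüppel-like factor gene luna held 50 members, the megalin gene mgl 48, the Wingless receptor gene fz2 47, the PDZ-protein gene bbg 46, klar, which acts in nuclear migration and organelle transport, 46, and cv-c 45.

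**Figure D4:**
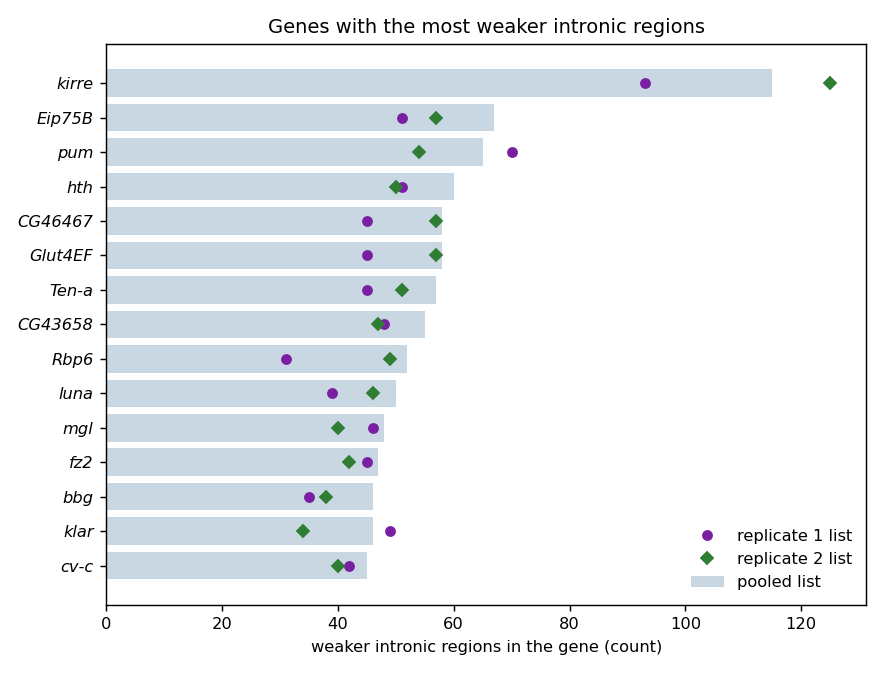
Number of weaker intronic regions in the 15 genes with the most of them, as bars for the pooled list and as points for the list of each replicate. The gene kirre stands apart with 115 in the pooled list, 93 in replicate 1 and 125 in replicate 2, and CG46467 and Glut4EF share their regions.

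Per length the order was different. Over all genes the density was 2.05 members per 10 kb of eligible intron, and kirre had 3.45. Among genes with 10 kb or more, Trf2 was the densest, with 12.6 per 10 kb and no IDR peak in its eligible intron. Trf2 encodes a TBP-related factor that serves promoters without a TATA box. It held 13 members, with 14 weaker regions in replicate 1 and 12 in replicate 2. CG46429 and the stress-response gene Sesn, which overlap, counted the same 16 members (12.1 per 10 kb) and no IDR peak in eligible intron either. Lac, whose product Lachesin is a septate junction protein, had 10.7 per 10 kb, CG32066 10.2, gukh 9.77, tara 9.55, the Ras-like GTPase gene Rala 9.13, fng, whose product Fringe modifies Notch, 9.10, and the MAP kinase phosphatase gene Mkp3 8.92. Of these genes 4 had a count that moved by over 1.5 times with 1 replicate list alone. The lists of replicate 1 and replicate 2 held 12 and 5 weaker regions in Lac (11 members), 7 and 14 in CG32066 (15 members), 6 and 10 in Rala (11 members) and 9 and 8 in Mkp3 (13 members).

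Most genes of several lists with long introns held a member. Of the genes of the ecdysone response with eligible intron, 16 of 19 (84.2%) held a member, with 4.67 members per 10 kb and a median of 32.1 kb of intron. Beside Eip75B, the ecdysone receptor gene EcR held 33 members, with 20 weaker regions in replicate 1 and 30 in replicate 2, the E93 gene Eip93F 32 and the Ets factor gene Eip74EF 28. IDR peaks in these introns stood at 1.64 per 10 kb, against 0.75 over all genes. Some list names matched no protein-coding gene of the annotation by name and were not counted. These were Eip71CD and Eip55E here, Dl and yan in Notch and EGFR signalling, h, otd and bru among developmental transcription factors, Unc-89 in muscle structure and Syncrip in RNA binding.

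Signalling lists had similar densities. In Notch and EGFR signalling 19 of 26 genes (73.1%) held a member at 4.52 per 10 kb, led by the Notch coactivator gene mam with 37, the metalloprotease gene kuz with 28, vn, which encodes a neuregulin-like EGFR ligand, with 20 (17 in replicate 1 and 13 in replicate 2) and fng with 18. In Dpp, Hedgehog and Wingless signalling 15 of 26 (57.7%) did, at 4.41 per 10 kb, led by fz2 with 47, fz with 37, the glypican gene dally with 32 and the Dpp receptor gene tkv with 23. The circadian clock list had 6 of 12 genes at 4.51 per 10 kb. Pdp1 held 21 members, the kinase gene sgg 13, vri 12 and the repressor gene cwo 5, the last with no IDR peak in eligible intron. In vri the list of replicate 1 held 4 weaker regions and that of replicate 2 held 12.

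Among developmental transcription factors 28 of 45 genes (62.2%) held a member, at 2.76 per 10 kb. After hth, the sex determination gene fru held 33, sbb 32 and the Hox gene Antp 30. For axon guidance and neural adhesion it was 31 of 42 (73.8%) at 2.16 per 10 kb. After kirre and Ten-a came Ten-m, with 30 members and no IDR peak in eligible intron, and the Netrin gene NetB with 29. In Ten-m the list of replicate 1 held 32 weaker regions and that of replicate 2 held 19.

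RNA binding and splicing genes held a member in 14 of 15 cases (93.3%), at 1.95 per 10 kb and with a median of 70.0 kb of intron. After pum, heph, the gene of a polypyrimidine tract-binding protein, held 36, mub 30 and Rbfox1 24. Muscle structure genes had 9 of 22 (40.9%) at 2.89 per 10 kb, led by the Z-disc gene Zasp52 with 20 (13 in replicate 1 and 15 in replicate 2), the integrin gene mew with 16, Mef2 with 12 and the integrin gene if with 10.

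The list of ion channels and neurotransmitter receptors had the lowest density of the lists with a median intron above 1 kb. In it 14 of 34 genes (41.2%) held a member, with a median intron length of 22.8 kb. The density was 0.514 members per 10 kb, against 2.05 over all genes, and IDR peaks stood at 0.162 per 10 kb, against 0.75. The potassium channel gene Sh held 12 members (1.18 per 10 kb), and of the genes of cyclic AMP metabolism rut held 10 (3.60 per 10 kb) and dnc 8 (0.581 per 10 kb). The potassium channel gene Irk1 held 4, at 4.26 per 10 kb. In dnc the lists of the replicates differed, with 6 weaker regions in replicate 1 and 18 in replicate 2.

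Genes of constitutive machinery have short introns. Among cytoplasmic ribosomal protein genes 1 of 27 with eligible intron (3.7%) held a member, RpS15Aa, and among proteasome genes 0 of 25 did; their median eligible intron was 0.102 and 0.087 kb. The ribosomal share stands beside 1.65% of all genes with up to 1 kb of intron, and its density of 1.87 members per 10 kb beside 2.05 over all genes. All list values are descriptions, and no test of a list was made. They stand beside the 20.0% and the 2.05 per 10 kb of all genes, which cover all intron lengths. Genes with 5 to 20 kb of eligible intron stood at 62.0% and those above 20 kb at 77.6%. Median eligible intron was 33.1 kb in axon guidance and neural adhesion and 15.1 kb in developmental transcription factors. It was 14.5 kb in Notch and EGFR signalling and 10.3 kb in Dpp, Hedgehog and Wingless signalling. It was 7.21 kb in muscle structure and 6.13 kb in the circadian clock.

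Between genes, 1351 of 6528 stretches with eligible sequence (20.7%) held a member, and 298 held 5 or more. The nearest start of an intergenic member belonged to a protein-coding gene in 62.7% of cases, to a noncoding RNA gene in 34.7% and to a transfer RNA gene for 89 members. The fullest stretches were chosen after their counts were seen, and their IDR peaks are those under the same position rule. The stretch on 3L between Aps and lncRNA:CR45248 held 47 members and 12 IDR peaks in 59.1 kb, and 34 of the 47 were in both replicate lists. A stretch on 2R between lncRNA:CR45229 and CG16894 held 44 members and 11 IDR peaks, and 28 of the 44 were in both lists.

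Among the 10 fullest stretches were also that between NijA and CG43245 on 3L, with 39 members and 24 IDR peaks, that between Rev1 and CG17129, with 20 members and 2 IDR peaks, and 2 others on 3L with 21 members each, between lncRNA:CR45245 and lncRNA:CR44543 and between lncRNA:CR46326 and knrl. The stretch between bab1 and bab2, paired BTB-domain factors of leg, ovary and pigmentation patterning, held 20 members and 3 IDR peaks, with 13 of the 20 in both lists. That between Su(z)2, a relative of the Polycomb group gene Psc, and CG13323 held 21 members and 4 IDR peaks, and that next to Tollo, a Toll-family receptor gene, held 21 members and 9 IDR peaks. On 3R, the stretch between lncRNA:CR45585 and lncRNA:CR46352 held 22 members and 1 IDR peak in 21.1 kb, which is 10.5 members per 10 kb against 1.29 over all stretches, and 19 of the 22 were in both lists.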

How the data were processed

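Whole pupae of 1 group with 2 biological replicates were profiled by transcription factor ChIP-seq. Per the deposited text files, a replicate list came from the authors' alignments of that replicate with a control, the pooled list from the alignments of both with the control, and the IDR list from these lists; for caller, aligner, filters and thresholds the entry is: not given in the sources used here. Values used were the authors' signal per region, the deposited −log10 q-value and the deposited summit offset, an other quantity in bp. Read counts were not used, so depth is unknown and intervals cover counting error of regions only.

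Summits were placed on dm6 with the Ensembl 115 annotation of the same assembly, transposable elements left out. Shares have exact 95% binomial intervals. Words were tested by exact binomial and Fisher's exact tests with Benjamini-Hochberg adjustment (scipy 1.17.1, Python 3.11.15), at a threshold of 0.05, checked on simulated data. The simulated sequence had a uniform base composition and no overlapping windows. That check therefore does not cover the GC differences or the overlaps of the real regions. Named genes are the 15 with the most members, the 10 densest with at least 10 kb of eligible intron, and up to 4 of each list; the 3 strongest members of each class in both lists, arm 2R not shown, and the 4 words of lowest p per comparison were named. Members, words and lists were chosen with earlier results of these data known. Whether the 2 replicates are separate animals or pools is not stated beyond the label.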

Additional observations from a re-analysis of the deposited data

How the results depend on the processing

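Alternatives moved the limit from a start to 250 or 1000 bp, counted transposable elements as genes, used either replicate list in place of the pooled list, or took stronger members, members in both lists, wider windows, farther flanks or a larger overlap. Keeping the strongest member of each overlapping cluster, or leaving out members whose summit base lies in soft-masked sequence, was chosen after seeing the data. The soft-masked filter was not applied to flank windows. The intronic share ran from 67.0% to 71.5% with 1 replicate list. Support of intronic and intergenic members was 84.2% and 80.7% in the stronger part, 49.9% and 48.4% with at least 50% of the member covered (difference 1.54 points, exact p = 0.0806), and 58.0% and 54.4% with 1 member per cluster; it could not be recomputed without a replicate. Words passing against the flank were 2 in introns among all members, 1 among members in both lists and 1 with flanks at 1000 bp, and from 1 to 3 with either replicate list alone. Between genes, where 0 passed among all members, they were 1 in the stronger part, 3 with 100 bp to either side of the summit, 1 outside soft-masked sequence, and from 1 to 6 with either replicate list. Against IDR peaks the counts were 7 and 1 in the stronger part. With 1 replicate list, its weaker regions were set against its own top regions and not against IDR peaks. The counts then ran from 7 to 14 in introns and from 5 to 9 between genes. The A tract ratio in introns was 0.948 outside soft-masked sequence and the CAGGTAG ratio was 1.04 without replicate 2 (0.609 without replicate 1), with ratios of 1.37 and 0.367 among all members; the cause was not tested. With 100 bp to either side, GAGAGA was lower in members than in IDR peaks of both classes, while with 50 bp it was higher in intronic members and did not pass between genes (3.96% against 2.88%, exact adjusted p = 0.13). No paired analysis was possible because there is 1 group. Depth is unknown, so no region can be called absent.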
